A study of Homo sapiens with 8 samples.

Results

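The 35 genes described here are the glycolysis and hypoxia response genes of 26485 genes measured in BEAS-2B cells, a line of immortalised human airway epithelial cells. They were taken by symbol from the deposited tables, and all 35 were found. They comprise 24 genes of glucose use (3 transporters, 17 enzymes and 4 regulators of flux) and 11 genes on the hypoxia side (3 of the oxygen-sensing machinery and 8 other targets of hypoxia-inducible factor, HIF). RNA was sequenced from 4 groups of cells, all transfected with an siRNA, moved to BEBM medium 24 hours before stimulation and harvested 24 hours after it. LY96 siRNA with house dust mite (HDM) extract had 3 libraries, control siRNA with HDM extract had 3, and LY96 siRNA with PBS and control siRNA with PBS had 1 each. LY96 encodes MD-2, the co-receptor through which TLR4 senses endotoxin. The series asks how BEAS-2B cells respond to the extract with and without that protein.

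Glycolysis splits glucose into pyruvate: glucose transporters bring it in, hexokinases trap it, phosphofructokinases commit it, and lactate dehydrogenase and the lactate exporter clear the product. HIF is a pair of proteins whose alpha subunit is destroyed in oxygen after prolyl hydroxylases mark it. When oxygen is low the pair binds DNA at a short core sequence and raises many glycolytic genes together with genes of vessel growth, acid balance and mitochondrial turnover. Inflammatory signals can raise HIF1A and its targets in oxygenated cells too, which makes both sides of the set of interest in stimulated airway epithelium.

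Values are taken as FPKM, which corrects for transcript length, so levels can be set side by side between genes. Depth is unknown, because the tables hold no read counts. LY96 itself was listed at 0 in all 8 libraries, so its depletion could not be checked and the groups are named here by their siRNA. All 12 airway epithelial markers averaged at least 1 FPKM, and their sum was 1554 to 1636 with LY96 siRNA and HDM, 1664 to 1718 with control siRNA and HDM, and 1753 and 1692 in the LY96 and control siRNA PBS libraries. The markers did not move together. In the tests described below, 2 were higher (LAMB3 and CDH1) and 3 lower (KRT19, KRT8 and KRT18) with LY96 siRNA under HDM. Over both siRNAs, 3 rose and 3 fell with HDM. Fibroblast (DCN, LUM), leukocyte (PTPRC, CD3E) and endothelial (PECAM1) genes were listed at 0 in every library, and 2 of 7, 1 of 6 and 0 of 4 markers of those types averaged at least 1 FPKM. Those above that level were the fibroblast markers COL1A1 (mean 7.35 FPKM) and PDGFRB (11.45) and the leukocyte marker CD68 (3.87). Summed fibroblast markers were at 16.9 to 19.0 FPKM with LY96 siRNA and HDM, 16.0 to 17.1 with control siRNA and HDM, and 25.7 and 22.9 in the LY96 and control siRNA PBS libraries. Summed leukocyte markers were at 4.96 to 5.36 FPKM with LY96 siRNA and HDM, 2.80 to 3.53 with control siRNA and HDM, and 3.23 and 2.64 in the LY96 and control siRNA PBS libraries. Nearly all of that sum was CD68, at 4.93 to 5.30 FPKM with LY96 siRNA and HDM and 2.79 to 3.53 with control siRNA and HDM. Ribosomal RNA genes took 1.03% to 1.31% of all FPKM with LY96 siRNA and HDM, against 0.475% to 0.824% with control siRNA and HDM, and 0.826% and 0.770% in the LY96 and control siRNA PBS libraries. The part of these shifts in the results below was not tested. In a bulk sample, fewer cells of a type and less RNA per cell cannot be told apart.

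The HIF core is known in 2 forms, ACGTG and GCGTG, which were looked up as letters in 300-base windows, from 250 bases before to 50 after each RefSeq start site, on GRCh38.p14. ACGTG, read on both strands, stood in 23 of 60 start-site windows (38.3%) of the 31 members found in the table, against 21.4% of all 34943 windows. GCGTG stood in 25 of the 60 (41.7%), against 36.5% of all, and either form in 40 of the 60 (66.7%), against 48.4% of all. By gene, 19 of 31 members held ACGTG at 1 or more starts, against 24.9% of 27305 genes, and 29 held either form, against 52.4%. A gene with more starts has more chances of a match. The 31 members had 60 windows and the 27305 genes 34943, so the shares by gene are not like for like. The members were chosen as glycolysis and hypoxia response genes, so these shares describe that choice and are not a result of the treatments. ACGTG was present in 10 of 15 members called in at least 1 comparison below, in 8 of 14 tested members called in none and in 1 of 2 not tested. Either form was present in 15 of those 15, 12 of those 14 and both of those not tested. CACGTG, which holds ACGTG on both strands, was in 8 of 60 member windows (13.3%) and in 7.23% of all. The 250 bases before the start of HK2, CA9, ALDOC, MXI1 and PFKFB3, which changed, and of LDHA, which holds the core repeatedly and did not, are shown on each gene's own strand, with capitals where ACGTG lies on either strand:
HK2 (chr2:74834920-74835169, plus): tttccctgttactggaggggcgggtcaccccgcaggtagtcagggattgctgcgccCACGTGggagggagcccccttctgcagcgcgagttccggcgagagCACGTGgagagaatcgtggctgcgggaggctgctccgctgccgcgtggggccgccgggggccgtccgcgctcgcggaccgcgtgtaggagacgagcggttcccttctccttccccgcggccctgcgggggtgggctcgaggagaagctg
CA9 (chr9:35673678-35673927, plus): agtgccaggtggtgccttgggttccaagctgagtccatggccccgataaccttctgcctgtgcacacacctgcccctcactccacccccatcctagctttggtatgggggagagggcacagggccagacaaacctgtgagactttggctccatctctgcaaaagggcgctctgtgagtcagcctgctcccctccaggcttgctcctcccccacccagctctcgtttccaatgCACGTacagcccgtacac
ALDOC (chr17:28576896-28577145, minus): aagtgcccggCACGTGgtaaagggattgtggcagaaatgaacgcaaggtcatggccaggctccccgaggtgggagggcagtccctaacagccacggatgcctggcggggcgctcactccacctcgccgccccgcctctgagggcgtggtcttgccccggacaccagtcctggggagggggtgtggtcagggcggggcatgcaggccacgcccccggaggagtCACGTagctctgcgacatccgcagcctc
MXI1 (chr10:110209981-110210230, plus): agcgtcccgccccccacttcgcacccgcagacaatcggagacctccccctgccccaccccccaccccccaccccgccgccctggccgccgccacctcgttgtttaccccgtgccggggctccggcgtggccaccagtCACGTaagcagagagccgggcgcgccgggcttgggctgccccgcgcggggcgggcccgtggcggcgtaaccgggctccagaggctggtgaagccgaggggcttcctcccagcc
PFKFB3 (chr10:6202682-6202931, plus): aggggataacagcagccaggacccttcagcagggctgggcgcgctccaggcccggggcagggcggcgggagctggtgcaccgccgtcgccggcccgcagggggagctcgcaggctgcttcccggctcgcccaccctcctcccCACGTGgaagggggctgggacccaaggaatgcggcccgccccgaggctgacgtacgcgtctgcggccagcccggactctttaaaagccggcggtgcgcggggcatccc
LDHA (chr11:18394313-18394562, plus): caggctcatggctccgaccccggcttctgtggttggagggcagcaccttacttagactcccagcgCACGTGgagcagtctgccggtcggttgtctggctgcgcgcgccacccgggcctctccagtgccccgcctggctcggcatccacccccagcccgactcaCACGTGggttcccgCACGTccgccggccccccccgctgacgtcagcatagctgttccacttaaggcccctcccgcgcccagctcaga
The starts shown were chosen because ACGTG lies there. MXI1, PFKFB3 and LDHA have other starts whose windows held no ACGTG. HK2 has another start with 2 matches, against 4 at the start shown, counted on both strands. A match is a run of letters and not a shown binding site, and no link between matches and the changes below was tested.

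The members differed widely in level. GAPDH, ENO1, ALDOA, PKM and TPI1 led, at 465 to 1498 FPKM over all libraries. At the low end, ANKRD37 lay between 0.740 and 1.09 FPKM and CA12, a carbonic anhydrase, between 0.0147 and 0.328 FPKM. These 2 genes averaged under 1 FPKM and were not tested, which leaves 33. The 17 glycolytic enzymes together held 1.49% to 1.54% of all FPKM with LY96 siRNA and HDM, 1.50% to 1.57% with control siRNA and HDM, and 1.45% and 1.44% in the LY96 and control siRNA PBS libraries.

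**Figure D1:**
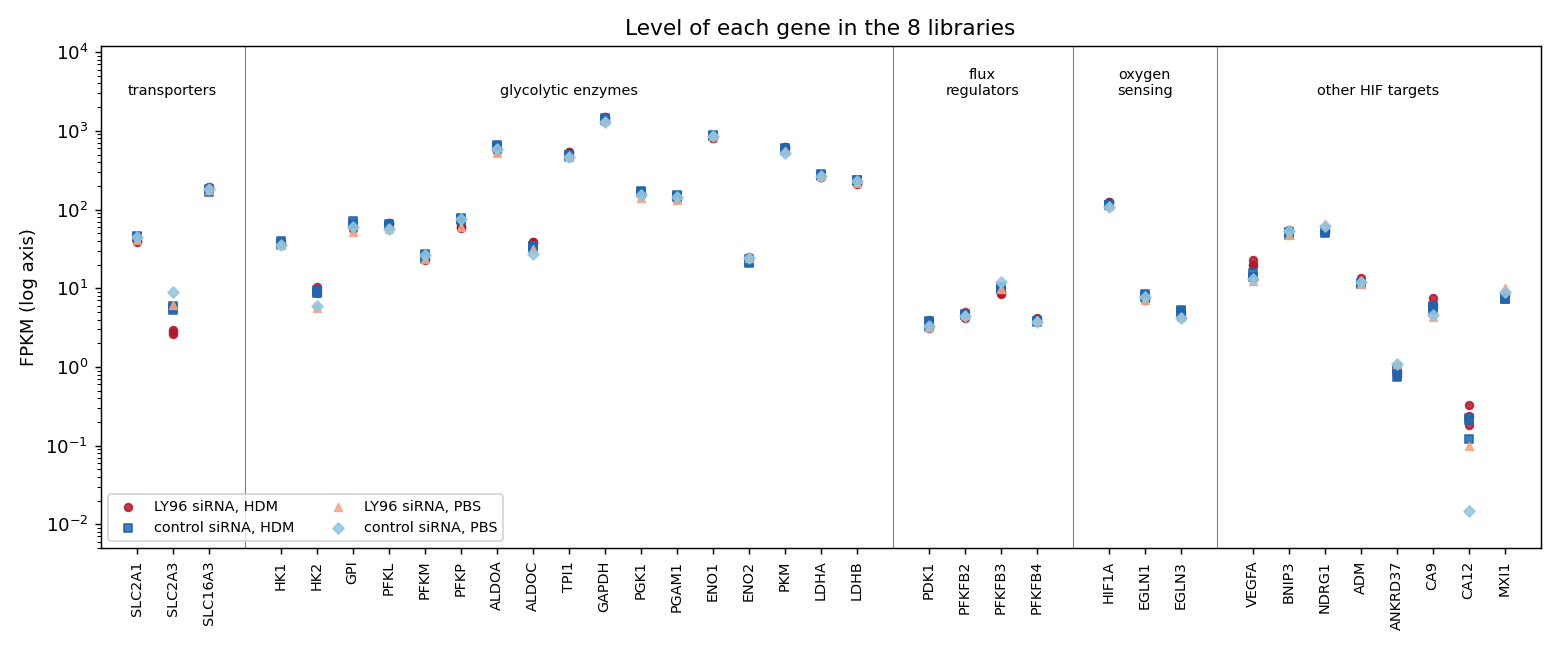
FPKM of the 35 genes (log axis) in each of the 8 libraries, by role, with 1 symbol per library. GAPDH, ENO1, ALDOA, PKM and TPI1 lie highest, and the enzymes ALDOC and ENO2 lie between 21.1 and 38.8 FPKM. HK2, SLC2A3 and the flux regulators lie near or below 10 FPKM, and SLC2A3 has the widest separation of groups among the transporters.

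Differences are given as log2 of FPKM + 1 with their standard error (SE) from limma, and adjusted p is Benjamini-Hochberg over all genes tested, with 0.05 as the threshold. On this scale the change of a low gene is understated. The siRNA comparison rests on 3 against 3 libraries. Each HDM comparison has 1 PBS library per siRNA, which is assumed to vary like the HDM libraries. The labels do not say whether the replicates were separate cultures, so a p-value here reflects variation among these libraries alone, possibly technical.

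HDM extract was accompanied by slightly to moderately higher levels of some glycolytic enzymes, and by lower SLC2A3, a glucose transporter. Averaged over both siRNAs, 10 members rose and 4 fell of 33 tested, against 8.36% of 12604 genes called (4.86% that rose and 3.5% that fell). The rises held 7 of 17 enzymes (HK2, GPI, PFKL, ALDOC, GAPDH, PGK1 and PKM) with no enzyme falling, and HIF1A, VEGFA and CA9. Of these enzymes HK2, PFKL and ALDOC kept the call under every alternative tried. The falls were SLC2A3, the flux regulator PFKFB3, NDRG1 and MXI1. The median log2 difference was 0.05 for the 24 glucose-use genes and 0.11 for the 17 enzymes among them. It was 0.07 for the 9 tested hypoxia-side genes, against 0.01 for all genes. The glucose-use side had 7 up and 2 down, and the hypoxia side had 3 up and 2 down.

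With LY96 siRNA more glucose-use genes were lower than higher, and more hypoxia-side genes were higher than lower. Under HDM, 4 members were higher and 7 lower with LY96 siRNA than with control siRNA, against 15.6% of 12598 genes called (6.68% higher and 8.92% lower). Of the 24 glucose-use genes 7 were lower (SLC2A1, SLC2A3, GPI, PFKP, ALDOA, LDHB and PFKFB3) and 1 was higher (ALDOC), with a median log2 difference of -0.06. Of the 9 tested hypoxia-side genes 3 were higher (HIF1A, VEGFA and MXI1) and none lower, with a median of 0.10, against -0.02 for all genes. With median-ratio scaling the split over all genes turned from 842 up and 1124 down to 1055 up and 888 down, and that over the members from 4 up and 7 down to 5 up and 5 down. The 2 sides were not tested against each other.

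**Figure D2:**
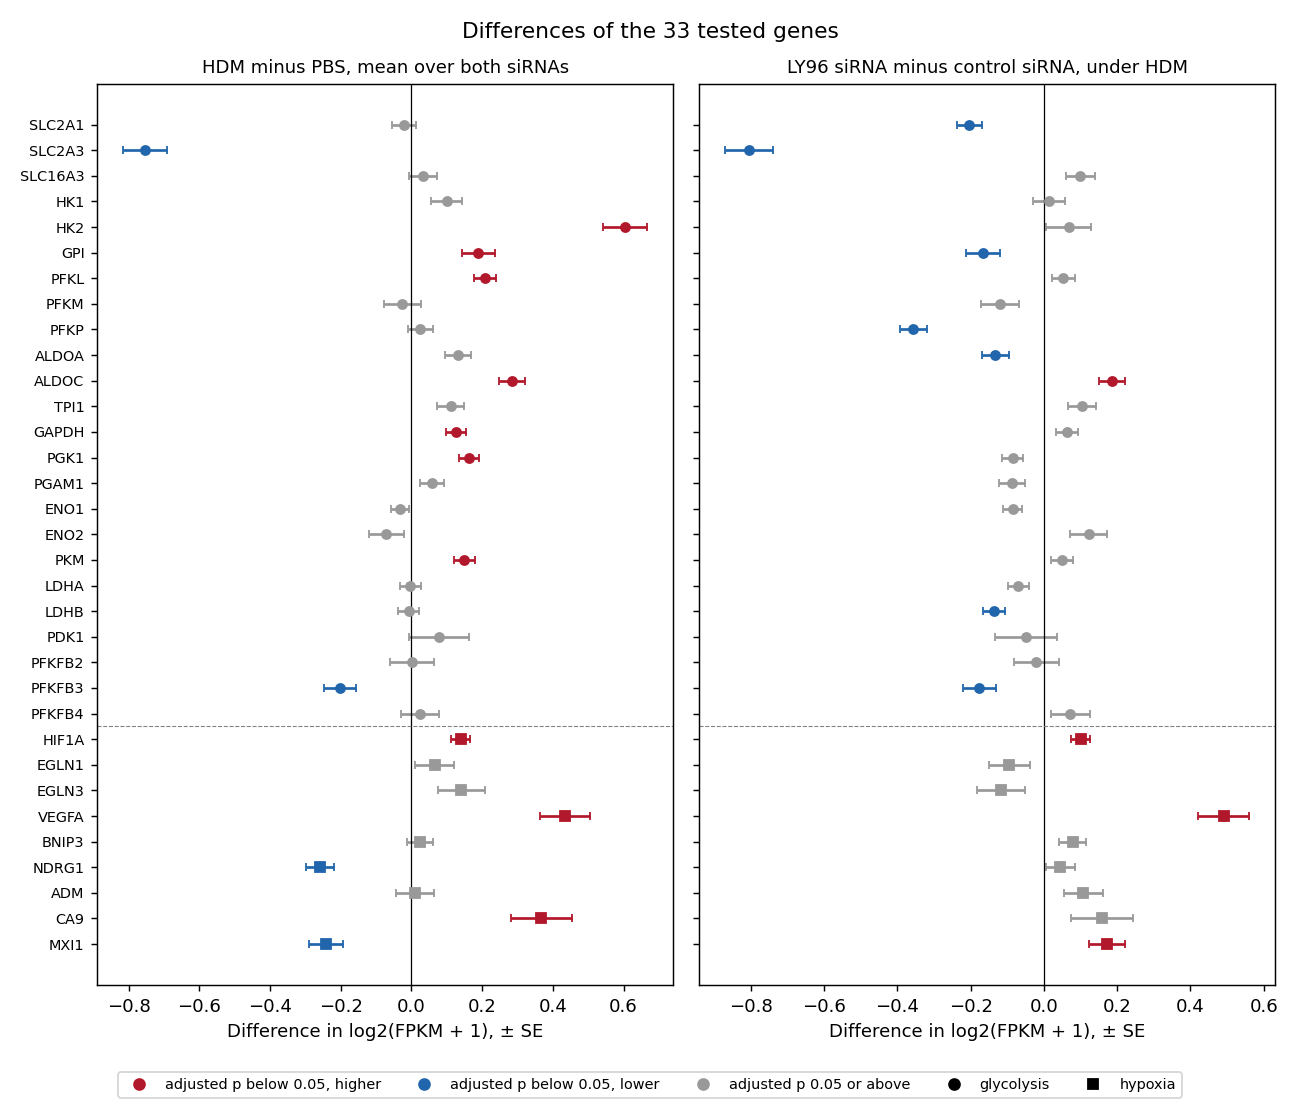
Log2 difference (± SE) of each of the 33 tested genes for HDM minus PBS over both siRNAs and for LY96 siRNA minus control siRNA under HDM, by role. SLC2A3 lies far below 0 in both, HK2 is the highest enzyme under HDM at 0.60, and PFKP at -0.36 is the lowest enzyme in the siRNA comparison.

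Among the transporters, SLC2A3 (GLUT3, chromosome 12, 7919230 to 7936275), a high-affinity glucose transporter, moved the most. It stood at 2.97, 2.77 and 2.60 FPKM with LY96 siRNA and HDM, at 5.93, 5.58 and 5.31 with control siRNA and HDM, and at 6.14 and 8.90 in the LY96 and control siRNA PBS libraries. The HDM groups did not overlap, and each HDM library was below the PBS library of its siRNA. HDM levels were 0.453 times the PBS level with LY96 siRNA and 0.630 times with control siRNA. The log2 difference for HDM was -0.75 ± 0.06 SE (adjusted p = 1.32e-04), place 26 from the lowest of 12604 genes. For LY96 siRNA it was -0.80 ± 0.06 SE (adjusted p = 2.21e-04), place 38 from the lowest of 12598. In the PBS pair, which has 1 library a side and no test, the LY96 siRNA level was 0.690 times that with control siRNA. Both calls held under every alternative tried. SLC2A14, a near-identical copy, was listed at 0.0917 to 0.423 FPKM, and how the quantifier divided shared reads is not known.

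SLC2A1 (GLUT1, chromosome 1, 42925375 to 42959176), the basal glucose transporter, was lower with LY96 siRNA and barely moved with HDM. It was measured at 39.3, 38.2 and 40.2 FPKM with LY96 siRNA and HDM and 45.3, 46.4 and 44.4 FPKM with control siRNA and HDM. The PBS libraries had 41.3 FPKM with LY96 siRNA and 44.4 FPKM with control siRNA. The HDM groups did not overlap (log2 -0.20 ± 0.03 SE, adjusted p = 0.00604), and the call held under every alternative. The HDM difference was -0.02 (adjusted p = 0.793). SLC16A3 (MCT4), which exports lactate, averaged 189 ± 6.58 FPKM with LY96 siRNA and HDM and 177 ± 8.04 with control siRNA and HDM (SD, n = 3 each), and 176 and 181 in the LY96 and control siRNA PBS libraries. Those HDM groups overlapped, and no comparison passed the threshold for it, although the siRNA difference did with quantile normalization (0.13, adjusted p = 0.0483).

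Entry of glucose into the pathway differed by isoform. HK2 (chromosome 2, 74833981 to 74893359), the inducible hexokinase, was at 8.79, 9.42 and 10.3 FPKM with LY96 siRNA and HDM and at 8.68, 8.85 and 9.50 with control siRNA and HDM. The PBS libraries had 5.59 with LY96 siRNA and 5.89 with control siRNA, so all 6 HDM libraries lay above both. The HDM levels were 1.70 and 1.53 times the PBS level with LY96 and control siRNA (log2 0.60 ± 0.06 SE over both, adjusted p = 5.01e-04). That call held under every alternative. HK2 did not pass for the siRNA (log2 0.07, adjusted p = 0.496). HK1, the constitutive hexokinase, stayed between 35.01 and 39.49 FPKM across all libraries and passed in no comparison.

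The phosphofructokinase subunits split by siRNA. PFKP (platelet type, chromosome 10, 3066333 to 3137712) had 57.5, 60.6 and 61.3 FPKM with LY96 siRNA and HDM, against 74.6, 79.2 and 76.7 with control siRNA and HDM. The PBS libraries differed in the same direction, 59.2 with LY96 siRNA and 74.8 with control siRNA, a ratio of 0.792 with no replicate. PFKP was lower with LY96 siRNA by log2 -0.36 ± 0.04 SE (adjusted p = 6.42e-04, held under every alternative), and its HDM difference was 0.03 (adjusted p = 0.756). PFKL (liver type, chromosome 21, 44300051 to 44327376) instead followed HDM. It had 64.6, 68.0 and 66.6 FPKM with LY96 siRNA and HDM, 64.6, 63.6 and 63.7 with control siRNA and HDM, and 56.4 and 56.0 in the LY96 and control siRNA PBS libraries. Every HDM library lay above both PBS libraries (log2 0.21 ± 0.03 SE, adjusted p = 0.00329, held under every alternative). PFKM, the muscle type, ranged from 22.6 to 27.0 FPKM and passed in no comparison.

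GPI, which turns glucose-6-phosphate into fructose-6-phosphate (chromosome 19, 34359480 to 34402413), rose with HDM and was lower with LY96 siRNA. Its FPKM were 56.6, 62.4 and 61.3 with LY96 siRNA and HDM, 65.4, 71.2 and 66.0 with control siRNA and HDM, and 51.9 and 59.8 in the LY96 and control siRNA PBS libraries. The log2 differences were 0.19 ± 0.05 SE for HDM (adjusted p = 0.0396) and -0.17 ± 0.05 SE for the siRNA (adjusted p = 0.0437). The HDM call was lost without LY96 replicate 2 or 3 or any 1 of the 3 control HDM replicates (adjusted p from 0.0501 to 0.0721), and the siRNA call without LY96 replicate 1 or 3 or any 1 of the 3 control replicates (0.0615 to 0.138). Without the low-value filter the adjusted p was 0.110 for HDM and 0.0991 for the siRNA.

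The aldolases moved apart by siRNA, while both were higher in every HDM library than in the PBS library of its siRNA. ALDOC (brain type, chromosome 17, 28573115 to 28577264) had 37.4, 38.3 and 38.8 FPKM with LY96 siRNA and HDM, 34.0, 34.2 and 32.1 with control siRNA and HDM, and 31.5 and 27.0 in the LY96 and control siRNA PBS libraries. It rose with HDM (log2 0.28 ± 0.04 SE, adjusted p = 0.00166) and was higher with LY96 siRNA (0.19 ± 0.04 SE, adjusted p = 0.0115), and both calls held under every alternative. The abundant ALDOA (chromosome 16, 30064164 to 30070457) had 553, 603 and 593 FPKM with LY96 siRNA and HDM, 643, 653 and 621 with control siRNA and HDM, and 528 and 587 in the LY96 and control siRNA PBS libraries. It was lower with LY96 siRNA (log2 -0.13 ± 0.04 SE, adjusted p = 0.0401), and its HDM difference of 0.13 did not pass (adjusted p = 0.0599, but 0.0236 with quantile normalization and 0.0126 without LY96 replicate 1). The ALDOA call was lost without LY96 replicate 1 or 3 or any 1 of the 3 control replicates (adjusted p from 0.0520 to 0.127), and with median-ratio scaling (0.0511) or no filter (0.0910). Of the 17 enzymes ALDOC was the 1 called higher with LY96 siRNA, and with median-ratio scaling TPI1 was called higher as well (0.12, adjusted p = 0.0493).

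Downstream, from glyceraldehyde phosphate to pyruvate, GAPDH, PGK1 and PKM rose with HDM by small amounts. PGK1 (phosphoglycerate kinase, chromosome X, 77910739 to 78129296) had 155, 159 and 162 FPKM with LY96 siRNA and HDM, 165, 171 and 168 with control siRNA and HDM, and 140 and 152 in the LY96 and control siRNA PBS libraries. Its log2 difference for HDM was 0.16 ± 0.03 SE (adjusted p = 0.00893). PKM (pyruvate kinase, chromosome 15, 72199029 to 72231822) had 589, 617 and 615 FPKM with LY96 siRNA and HDM, 580, 602 and 577 with control siRNA and HDM, and 550 and 525 in the LY96 and control siRNA PBS libraries (log2 0.15 ± 0.03 SE, adjusted p = 0.0140). GAPDH (chromosome 12, 6533927 to 6538374), the most abundant member, had 1424, 1498 and 1480 FPKM with LY96 siRNA and HDM and 1392, 1449 and 1373 with control siRNA and HDM, against 1317 and 1314 in the LY96 and control siRNA PBS libraries (0.13 ± 0.03 SE, adjusted p = 0.0310). All 6 HDM libraries exceeded both PBS libraries for PKM and GAPDH. The GAPDH call was lost without LY96 replicate 3 or control replicate 1 or 2 (adjusted p from 0.0547 to 0.0667), with quantile normalization (0.191) and without the filter (0.0776). GAPDH has 62 annotated pseudogenes that can share its reads, and PGAM4, a copy of PGAM1 at 8.56 to 10.3 FPKM, lies inside PGK1.

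Of the lactate dehydrogenase subunits, LDHB passed the siRNA test and LDHA passed none, and each was lower in every LY96 siRNA HDM library than in every control siRNA HDM library. LDHB (chromosome 12, 21635342 to 21757857) had 209, 214 and 218 FPKM with LY96 siRNA and HDM and 229, 239 and 236 FPKM with control siRNA and HDM. The PBS libraries had 218 with LY96 siRNA and 233 with control siRNA. It was lower with LY96 siRNA (log2 -0.14 ± 0.03 SE, adjusted p = 0.0170), a call lost without control replicate 2 or 3 (adjusted p = 0.0594 and 0.0695). LDHA, the HIF-responsive subunit whose promoter is shown above, was at 260 ± 4.72 FPKM with LY96 siRNA and HDM and 273 ± 6.69 with control siRNA and HDM (SD, n = 3 each), with 263 and 270 in the LY96 and control siRNA PBS libraries. Its log2 differences were -0.07 for the siRNA (adjusted p = 0.133) and 0.00 for HDM (adjusted p = 0.971). TPI1, PGAM1, ENO1 and ENO2 also passed in no comparison as fitted. ENO1, at 801 to 825 FPKM with LY96 siRNA and HDM and 852 to 888 with control siRNA and HDM, came nearest (log2 -0.09, adjusted p = 0.0543) and passed with quantile normalization (-0.13, adjusted p = 0.0122). TPI1, at 496 to 541 FPKM with LY96 siRNA and HDM and 470 to 497 with control siRNA and HDM, was called higher for the siRNA without LY96 replicate 1 (adjusted p = 0.0277), and for HDM with quantile normalization (0.0291) and without LY96 replicate 1 (0.0345). PGAM1 and PGK1 were called lower for the siRNA in the additive model (adjusted p = 0.0439 and 0.0269).

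Of the 4 flux regulators only PFKFB3 passed a test. PFKFB3 (chromosome 10, 6144934 to 6254644), which makes the fructose-2,6-bisphosphate that speeds phosphofructokinase, had 8.55, 8.65 and 9.02 FPKM with LY96 siRNA and HDM, 9.91, 10.4 and 9.77 with control siRNA and HDM, and 9.82 and 12.1 in the LY96 and control siRNA PBS libraries. It fell with HDM (log2 -0.20 ± 0.04 SE, adjusted p = 0.0249) and was lower with LY96 siRNA (-0.18 ± 0.04 SE, adjusted p = 0.0305). The HDM call was lost without control replicate 3 (adjusted p = 0.0511), and the siRNA call without LY96 replicate 1 or 2 or any 1 of the 3 control replicates (0.0540 to 0.109). PFKFB2 (4.19 to 4.92 FPKM), PFKFB4 (3.74 to 4.13) and PDK1 (3.11 to 3.90), the kinase that closes pyruvate dehydrogenase, passed in no comparison. Like SLC2A3, PFKFB3 was lower in every HDM library than in the PBS library of its siRNA, and lower in every LY96 than in every control HDM library.

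**Figure D3:**
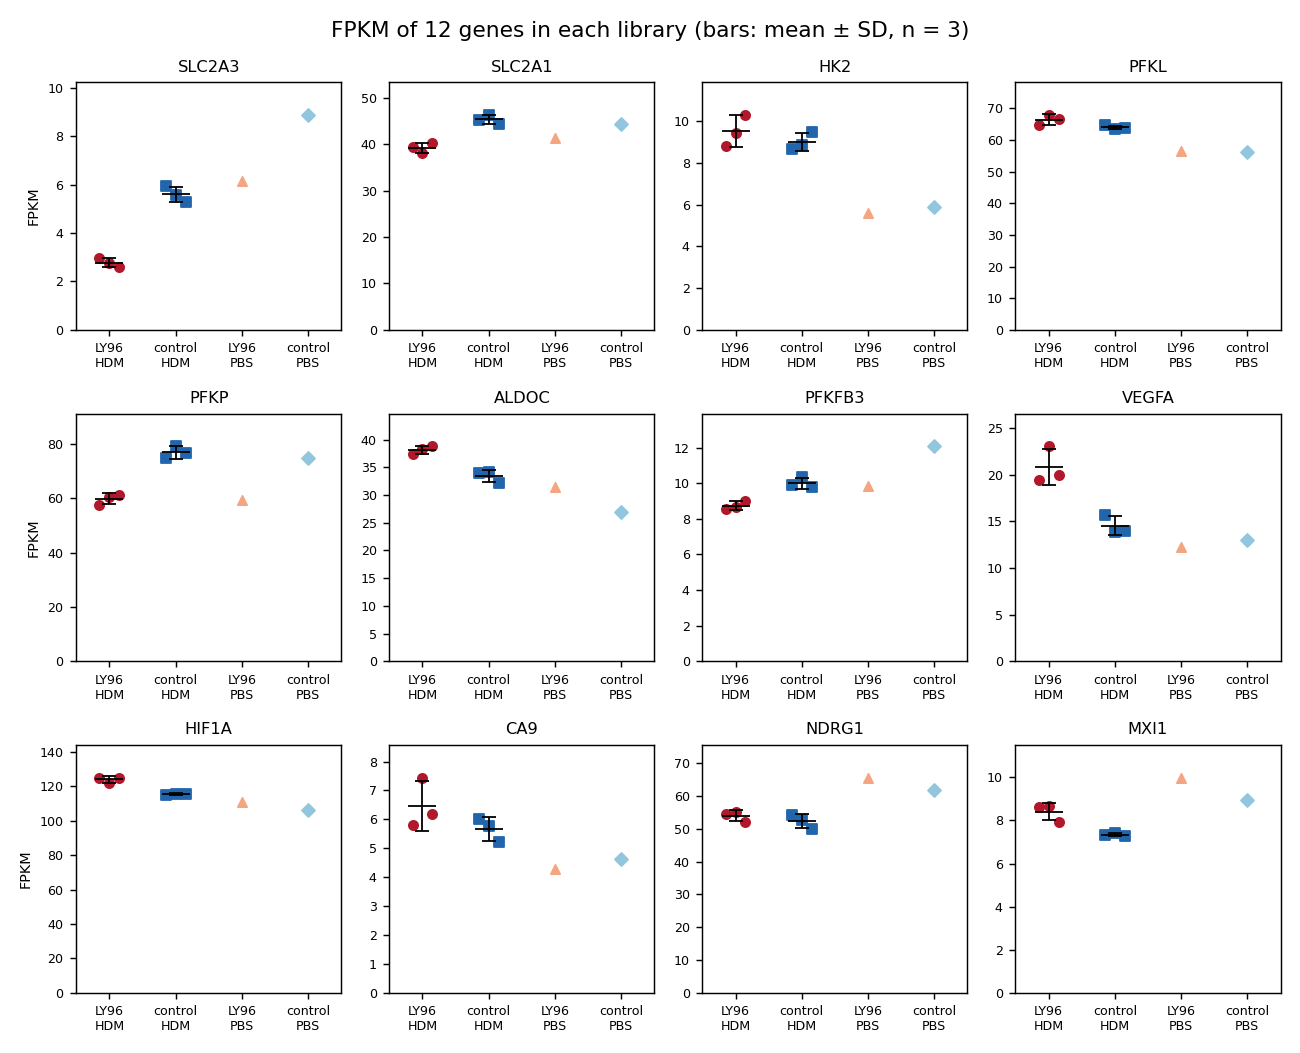
FPKM of 12 members in each library, with points for libraries and bars for the mean ± SD of the 3 HDM libraries of each siRNA (PBS has 1 library each). SLC2A3 is lowest in the LY96 siRNA HDM libraries (2.60 to 2.97) and highest with control siRNA and PBS (8.90), PFKP separates by siRNA, and HK2 and PFKL separate by HDM.

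On the oxygen-sensing side, HIF1A (chromosome 14, 61695513 to 61748259), the oxygen-labile HIF subunit, was slightly higher with HDM and with LY96 siRNA. It had 125, 122 and 125 FPKM with LY96 siRNA and HDM, 115, 116 and 116 with control siRNA and HDM, and 111 and 106 in the LY96 and control siRNA PBS libraries. Every HDM library lay above both PBS libraries (log2 0.14 ± 0.03 SE, adjusted p = 0.0125). For the siRNA the log2 difference was 0.10 ± 0.03 SE (adjusted p = 0.0356), a call lost without LY96 replicate 1 or 3 or any 1 of the 3 control replicates (adjusted p from 0.0819 to 0.0993). These are RNA levels, and HIF1A is known to be controlled mainly through the stability of its protein. The prolyl hydroxylases EGLN1 (7.02 to 8.44 FPKM) and EGLN3 (4.24 to 5.23 FPKM), which mark HIF for destruction and are themselves HIF targets, passed in no comparison.

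VEGFA (chromosome 6, 43770184 to 43786487), the vessel growth factor, had the highest log2 difference of the 9 tested hypoxia-side genes when HDM was averaged over both siRNAs. Its libraries held 19.5, 23.1 and 20.0 FPKM with LY96 siRNA and HDM, 15.7, 13.9 and 14.0 with control siRNA and HDM, and 12.2 and 13.0 in the LY96 and control siRNA PBS libraries. The HDM groups did not overlap (siRNA log2 0.49 ± 0.07 SE, adjusted p = 0.00330), and over both siRNAs HDM gave 0.43 ± 0.07 SE (adjusted p = 0.00600). In an additive model of siRNA and HDM over all 8 libraries neither call held (adjusted p = 0.0717 for the siRNA and 0.105 for HDM). CA9 (chromosome 9, 35673856 to 35681159), a carbonic anhydrase at the cell surface, had 5.79, 7.44 and 6.17 FPKM with LY96 siRNA and HDM, 6.02, 5.76 and 5.22 with control siRNA and HDM, and 4.28 and 4.64 in the LY96 and control siRNA PBS libraries. It rose with HDM (log2 0.37 ± 0.09 SE, adjusted p = 0.0334), and the call was lost without LY96 replicate 3 or control replicate 1 or 2 (adjusted p from 0.0504 to 0.0708) and without the filter (0.1002). ARHGEF39, which overlaps CA9, was at 4.68 to 5.38 FPKM.

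NDRG1 and MXI1 fell with HDM while VEGFA and CA9 rose. NDRG1 (chromosome 8, 133237171 to 133302022), a stress-responsive gene and a common hypoxia marker, had 54.6, 55.2 and 52.0 FPKM with LY96 siRNA and HDM, 54.3, 52.6 and 50.0 with control siRNA and HDM, and 65.6 and 61.9 in the LY96 and control siRNA PBS libraries (log2 -0.26 ± 0.04 SE, adjusted p = 0.00405). MXI1 (chromosome 10, 110207605 to 110287365), a repressor that opposes MYC, had 8.61, 8.68 and 7.94 FPKM with LY96 siRNA and HDM, 7.33, 7.42 and 7.28 with control siRNA and HDM, and 9.99 and 8.97 in the LY96 and control siRNA PBS libraries (-0.24 ± 0.05 SE, adjusted p = 0.0164). All 6 HDM libraries were below both PBS libraries for each gene, and both HDM calls held under every alternative. MXI1 was higher with LY96 siRNA under HDM (log2 0.17 ± 0.05 SE, adjusted p = 0.0443), a call lost without LY96 replicate 1 or 2 or any 1 of the 3 control replicates (adjusted p from 0.0979 to 0.127). BNIP3, which drives removal of mitochondria, and ADM, the gene of the vasodilator adrenomedullin, passed in no comparison, and ADM ranged from 11.2 to 13.4 FPKM. BNIP3 had 53.1 ± 1.13 FPKM with LY96 siRNA and HDM and 50.3 ± 1.93 with control siRNA and HDM (SD, n = 3 each), against 47.9 and 54.0 in the LY96 and control siRNA PBS libraries. Its HDM libraries thus lay above PBS with LY96 siRNA and below it with control siRNA.

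Counted by overlap alone, every LY96 siRNA HDM library was above every control siRNA HDM library for 7 members and below for 10, against 15.2% and 21.9% of the 12604 genes (37.1% in all). All 10 of the lower ones were glucose-use genes, and 5 of the 7 higher ones were on the hypoxia side. HDM libraries were above the PBS library of both siRNAs for 14 of 35 members and below for 5. The 14 include CA12 and the 5 include ANKRD37, the 2 genes averaging under 1 FPKM. Among the 12604 genes averaging at least 1 FPKM, the shares were 16.0% above and 12.9% below. The siRNA and HDM comparisons share the 6 HDM libraries, so their calls are not independent. ALDOC, HIF1A and VEGFA rose with HDM and were higher with LY96 siRNA, SLC2A3 and PFKFB3 were lower in both comparisons, GPI rose with HDM and was lower with LY96 siRNA, and MXI1 fell with HDM and was higher with LY96 siRNA.

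The make-up of isoform families was then compared as each gene's share of the FPKM of its family. HK2 made up 20.1% ± 1.02 of HK1 plus HK2 with LY96 siRNA and HDM and 19.4% ± 1.05 with control siRNA and HDM (SD, n = 3 each), against 13.8% and 14.4% in the LY96 and control siRNA PBS libraries. Among the phosphofructokinases PFKL took 44.4% ± 0.281 with LY96 siRNA and HDM, above PFKP at 40.0% ± 0.513, whereas with control siRNA and HDM PFKP led at 46.2% ± 0.634 against 38.5% ± 1.05 for PFKL (SD, n = 3 each). These shares add up to a whole, and of the 2 levels only that of PFKP passed for the siRNA (PFKL log2 0.05, adjusted p = 0.275). In the PBS libraries PFKP led with both siRNAs, at 42.5% with LY96 siRNA and 47.6% with control siRNA. ALDOC made up 6.15% ± 0.179 of the aldolases with LY96 siRNA and HDM and 4.97% ± 0.0493 with control siRNA and HDM (SD, n = 3 each), with 5.63% and 4.40% in the LY96 and control siRNA PBS libraries. SLC2A3 made up 6.62% ± 0.499 of SLC2A1 plus SLC2A3 with LY96 siRNA and HDM, 11% ± 0.510 with control siRNA and HDM (SD, n = 3 each), and 12.96% and 16.69% in the LY96 and control siRNA PBS libraries. LDHB shares moved little, 45.2% ± 0.225 with LY96 siRNA and HDM and 46.3% ± 0.693 with control siRNA and HDM (SD, n = 3 each). The smallest p that an exact two-sided permutation test allows is 0.1 for the siRNA and 0.0625 for HDM within siRNA, so no share can pass 0.05. PFKL, PFKP, ALDOC, ENO2, LDHB and SLC2A3 were at 0.1 in the exact siRNA test, and HK2, PFKL, PFKP, PFKM, ALDOC and SLC2A3 at 0.0625 in the exact HDM test (0.133 adjusted over 16 tests).

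**Figure D4:**
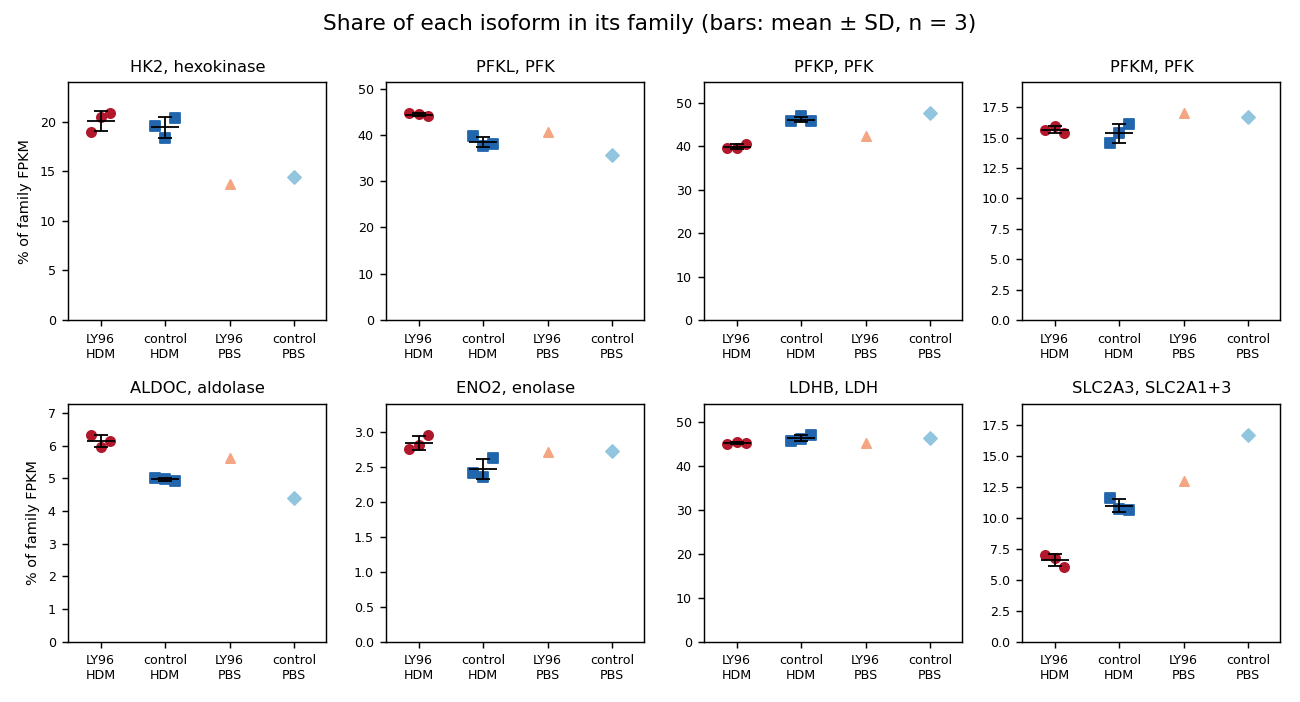
Share (%) of each isoform in the FPKM of its family in each library, with points for libraries and bars for the mean ± SD of the 3 HDM libraries of each siRNA. The HK2 share is higher in all HDM libraries than with PBS (13.8% with LY96 siRNA and 14.4% with control siRNA), the PFKP share is lower and the PFKL share higher with LY96 siRNA under HDM, as shares of 1 sum, and the SLC2A3 share is lowest with LY96 siRNA and HDM.

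Taken within each siRNA, the response to HDM was called for more members with LY96 siRNA than with control siRNA, but the difference between responses passed for no member. With LY96 siRNA 6 of 33 members rose (HK2, PFKL, ALDOC, PGK1, HIF1A and VEGFA) and 2 fell (SLC2A3 and NDRG1), against 4.9% of 12604 genes called (2.91% that rose and 1.98% that fell). With control siRNA HK2 and ALDOC rose and SLC2A3 fell, against 2.28% of genes called (1.55% that rose and 0.738% that fell). The interaction, which subtracts the control siRNA response to HDM from the LY96 siRNA response, was called for 0 of 33 members in limma and for 0.0555% of all genes. At an unadjusted p below 0.05 there were 3 members, and the lowest adjusted p was 0.346.

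SLC2A3 fell with HDM by 0.92 ± 0.09 SE on the log2 scale with LY96 siRNA (adjusted p = 4.29e-04) and by 0.59 ± 0.09 SE with control siRNA (adjusted p = 0.0111). Both calls held under every alternative, and the interaction was -0.33 (unadjusted p = 0.0256, adjusted p = 0.590). HK2 rose by 0.67 ± 0.09 SE with LY96 siRNA (adjusted p = 0.00279) and by 0.54 ± 0.09 SE with control siRNA (adjusted p = 0.0150, or 0.0601 if low genes stay in). VEGFA rose by 0.72 ± 0.10 SE with LY96 siRNA (adjusted p = 0.00403, held under every alternative), where HDM levels were 1.71 times the PBS level. With control siRNA the VEGFA ratio was 1.12 and the log2 difference of 0.15 did not pass. The VEGFA interaction was 0.57 ± 0.14 SE (unadjusted p = 0.00299, adjusted p = 0.346), and that of BNIP3 was 0.25 (unadjusted p = 0.00842, adjusted p = 0.465).

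Several of the remaining calls within 1 siRNA were lost under some alternatives. Leaving out an HDM library of the other siRNA does not alter the difference itself, only the estimated spread and its degrees of freedom. ALDOC rose by 0.27 ± 0.05 SE with LY96 siRNA (adjusted p = 0.0194, and 0.0501 without the filter) and by 0.30 ± 0.05 SE with control siRNA (0.0200), where the call was lost without control replicate 1 or 2 (adjusted p from 0.0589 to 0.0634). PFKL rose by 0.23 with LY96 siRNA (adjusted p = 0.0176), against 0.19 with control siRNA (adjusted p = 0.0661). PGK1 rose by 0.18 with LY96 siRNA (adjusted p = 0.0390), a call lost without LY96 replicate 2 or 3 or any 1 of the 3 control replicates (0.0616 to 0.0888). Without LY96 replicate 1, ALDOA, CA9, GAPDH, PKM and TPI1 were called with LY96 siRNA as well (0.0333 to 0.0448), and with quantile normalization PFKL, PGK1 and PKM with control siRNA (0.0133 to 0.0440). The LY96 siRNA call of HIF1A (0.16, adjusted p = 0.0457) was lost without any 1 of the 6 HDM libraries (0.0528 to 0.0968) and with median-ratio scaling (0.0678). NDRG1 had log2 -0.28 with LY96 siRNA (adjusted p = 0.0237), a call lost without LY96 replicate 3 (0.0515), and -0.24 with control siRNA (adjusted p = 0.0671).

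**Figure D5:**
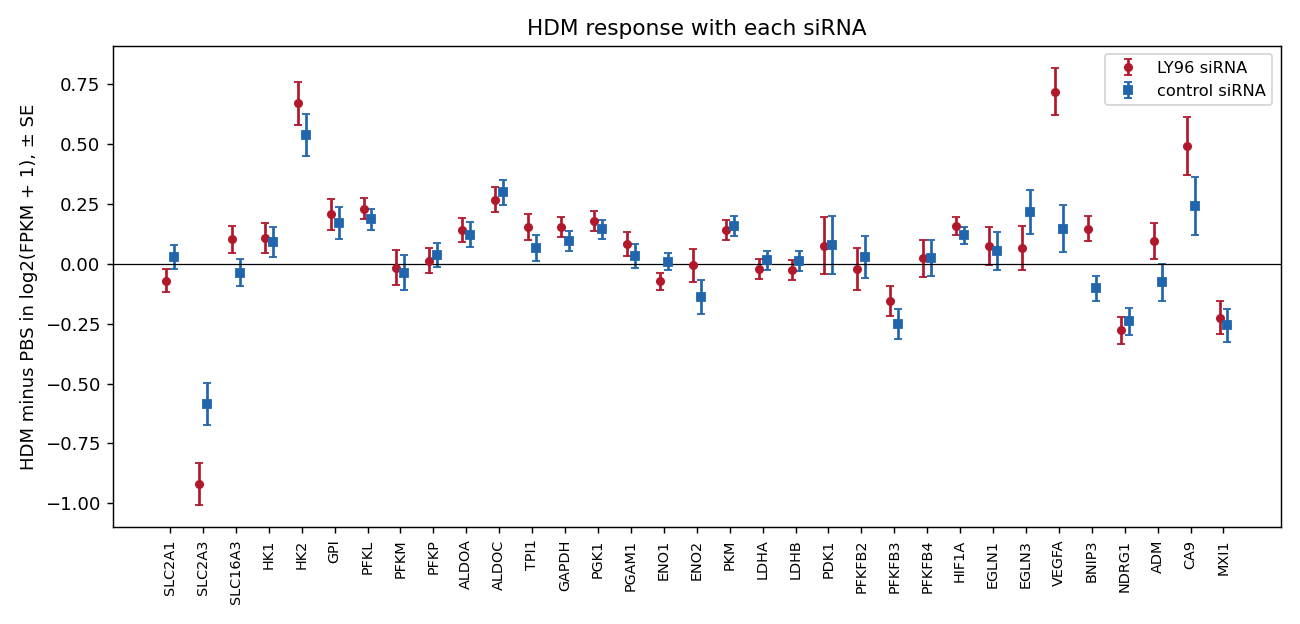
HDM minus PBS in log2(FPKM + 1) with its SE for each tested member, with LY96 siRNA and with control siRNA side by side. SLC2A3 is lowest with both siRNAs (-0.92 with LY96 siRNA and -0.59 with control siRNA), HK2 is high with both (0.67 with LY96 siRNA and 0.54 with control siRNA), and VEGFA has the widest gap (0.72 with LY96 siRNA and 0.15 with control siRNA), which did not pass the interaction test.

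Other genes of the same pathways are set here beside the 8.36% of all genes called for HDM and the 15.6% called for the siRNA. Of 27 tested further genes of glycolysis, glucose transport and pyruvate use, 1 rose with HDM and none fell. It was the transporter gene SLC2A6, at 10.5 to 10.8 FPKM with LY96 siRNA and HDM, 8.02 to 9.31 with control siRNA and HDM, and 6.46 and 5.84 in the LY96 and control siRNA PBS libraries (log2 0.57, adjusted p = 3.89e-04). For the siRNA 3 were higher and 2 lower, and of these 5 the monocarboxylate transporter gene SLC16A7 (log2 0.46, adjusted p = 0.00452) kept its call under every alternative. Of 14 tested genes of the oxygen-sensing machinery, 2 rose and 2 fell with HDM, and 1 was higher and 2 were lower with LY96 siRNA. CITED2, a competitor of HIF for its co-activators, fell with HDM (log2 -0.35, adjusted p = 0.00135) and was lower with LY96 siRNA (-0.30, adjusted p = 0.00341), under every alternative. The chaperone gene HSP90AA1 was lower with LY96 siRNA (-0.30, adjusted p = 5.33e-04), also under every alternative.

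Of 57 tested further HIF target genes, 13 rose and 9 fell with HDM (median log2 0.05), and 10 were higher and 5 lower with LY96 siRNA (median 0.03). STC2, the gene of a secreted glycoprotein, had 25.8, 29.6 and 24.1 FPKM with LY96 siRNA and HDM, against 8.82, 8.01 and 8.31 with control siRNA and HDM, and 7.20 and 5.48 in the LY96 and control siRNA PBS libraries. It was higher for HDM (log2 1.14) and for the siRNA (1.55), and was the 1 gene of this list whose interaction passed (1.21, adjusted p = 0.0430). That interaction call was lost without LY96 replicate 1 or any 1 of the 3 control HDM replicates (adjusted p from 0.0785 to 0.113), without the filter (0.0964), with the replicate block (0.0929) and without trend and robust moderation (0.288). DDIT4, an inhibitor of mTORC1, had 71.6, 89.9 and 77.4 FPKM with LY96 siRNA and HDM, against 30.3, 27.5 and 25.4 with control siRNA and HDM, and 27.8 and 20.8 in the LY96 and control siRNA PBS libraries. IGFBP3 (log2 -0.76) and PPP1R3C (-0.57) fell with HDM, and STC1 (0.56) rose. For the siRNA ATF3 (0.68) was higher. In the additive model STC2 and DDIT4 lost the HDM call (adjusted p = 0.0666 and 0.105). STC2, DDIT4, ATF3 and VEGFA are also known to answer to the integrated stress response, for which 16 genes were listed. Under HDM all 16 were higher with LY96 siRNA than with control siRNA (median log2 0.94). Averaged over both siRNAs, 14 were higher with HDM (median 0.46). Within each siRNA, 15 rose with HDM with LY96 siRNA (median 0.87) and 2 with control siRNA (median 0.15). The interaction passed for 3 of these genes. The part of this programme in the results of the HIF targets was not tested.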

How the data were processed

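RNA of 8 libraries from 4 groups was analysed. Each deposited table lists 26485 gene symbols with 1 value, which neither labels nor headers name. The deposited values were read as FPKM because they are not whole, totals differ (329777 to 340328) and low values show no read steps. Per the submitters' processing notes, HISAT2 2.2.0 and the hg38 build were used. What turned alignments into gene values is not given in the sources used here, so reads of overlapping genes and near-identical copies may have been divided in unknown ways. With depth unknown, counting intervals were not possible. No 2 libraries were identical, and pairs of libraries had r = 0.980 to 0.995 over genes (log2 values, genes not being independent).

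FPKM were used as deposited and transformed as log2(FPKM + 1). Genes averaging 1 FPKM or more in the libraries compared were fitted with limma 3.58.1 (R 4.3.3, mean-variance trend, robust moderation), with Benjamini-Hochberg adjustment over all genes and a two-sided threshold of 0.05. The siRNA comparison used the 6 HDM libraries. The HDM comparisons and the interaction used all 8 with 4 group means and 4 residual degrees of freedom, so the spread came from the HDM libraries. The fit was run on simulated data in which all 8 libraries were given the spread of the HDM libraries. That run therefore cannot check whether the PBS libraries vary like the HDM libraries. Alternatives were a pseudocount of 0.1, no filter, median-ratio and quantile scaling, no trend, an additive model, the replicate number as a block, and leaving out each HDM library. A PBS library cannot be left out, since its group would be empty. Members called in any comparison are given by library and the others by range, and at most 6 genes of each further list are named. The members, the lists and this rule were chosen with earlier results of these data known, and the near-identical and overlapping genes were looked up after the values were seen. Coordinates are from GENCODE v29 on GRCh38 and promoters from RefSeq on GRCh38.p14. The members not matched to a promoter were SLC2A3, PFKFB2, VEGFA and NDRG1.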

Additional observations from a re-analysis of the deposited data

How the results depend on the processing

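Over the 33 tested members and 5 comparisons, 2046 values were recomputed. None changed direction on a called value, 1931 kept their side of the threshold, 97 calls were lost and 18 gained. Calls that held under all alternatives were 6 of 14 for HDM over both siRNAs (ALDOC, HK2, MXI1, NDRG1, PFKL and SLC2A3), 4 of 11 for the siRNA (ALDOC, PFKP, SLC2A1 and SLC2A3), 3 of 8 for HDM with LY96 siRNA (HK2, SLC2A3 and VEGFA) and 1 of 3 for HDM with control siRNA (SLC2A3). Without trend and robust moderation, members called numbered 7 for the siRNA (11 as reported), 8 for HDM over both siRNAs (14) and 3 for HDM with LY96 siRNA (8), and 180 of all genes were called for HDM with control siRNA (288). Without the low-value filter, 4 members were called for HDM with LY96 siRNA and 1 for HDM with control siRNA (3 as reported), while quantile normalization gave 6 for the last. The interaction, called for 7 genes, was called for 20 without the filter, 14 with quantile normalization, 0 without trend and robust moderation and 3 with the replicate block, and for 0 members under each. The causes were not tested.

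Leaving out 1 HDM library gave 1119 to 1369 genes and 5 to 9 members for the siRNA (1966 and 11 as reported), and 774 to 936 genes and 11 to 16 members for HDM over both siRNAs (1054 and 14). It gave 493 to 593 genes and 5 to 12 members for HDM with LY96 siRNA (617 and 8), and 187 to 329 genes and 2 to 3 members for HDM with control siRNA (288 and 3, the 187 without control replicate 2). For the interaction it gave 0 to 33 genes and 0 members. Deviations of same-numbered HDM libraries had r = 0.0339, -0.0185 and -0.0222, and those of differently numbered ones reached 0.0354. These values do not set same-numbered libraries apart, and whether the numbers mark a pairing is not known. With the replicate block, members called were 8 for the siRNA, 13 for HDM over both siRNAs, 5 for HDM with LY96 siRNA and 2 for HDM with control siRNA. Depth is unknown, so no limit from it can be given for the low genes ANKRD37 and CA12.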
